A study of Mus musculus with 6 samples.

Results

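The 9 genes described here mark the layers of the cerebral cortex, and they were followed in the cortex of mice that had had a stroke. They are Cux1, Cux2, Rasgrf2, Lamp5 and Rorb for the upper layers and Fezf2, Bcl11b, Tbr1 and Foxp2 for the deep layers, taken by name from 24553 genes and unmatched rows in all. All animals were male C57BL/6J mice. One group drank water with short-chain fatty acids (SCFA), products of gut bacteria, and the control group drank water with matched salts, in both cases for 4 weeks from the age of 6 to 8 weeks. Both groups also drank 4 antibiotics, vancomycin, ampicillin, neomycin and metronidazol, in 5% sucrose. The cortex was studied at 15 weeks of age, 14 days after the stroke. There were 3 libraries of each group, SCFA 1 to 3 and control 1 to 3, each taken as 1 mouse because the design gives n = 3 for each. The sources used here do not give the hemisphere or the distance from the lesion. The p values set the difference between groups against the spread between these libraries, which the fit estimates partly from all tested genes.

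The neocortex is built of neuron layers with different targets. Neurons of the upper layers mostly connect cortical areas with each other and receive thalamic input in layer 4, while neurons of the deep layers send axons to the spinal cord, brainstem and thalamus. Transcription factors such as Cux1, Cux2 and Rorb on one side and Fezf2, Bcl11b and Tbr1 on the other keep these identities apart, and each is used as a layer marker. In RNA from whole tissue, fewer cells of a layer and less RNA per cell cannot be told apart.

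Of the 9 genes, 7 had enough counts to be tested, 3 upper and 4 deep. Between SCFA and control, 0 of these 7 passed in edgeR's quasi-likelihood test at a Benjamini-Hochberg adjusted p under 0.05, where 0.0835% of the 11969 tested genes did (0.00835% higher and 0.0752% lower with SCFA). DESeq2 and limma-voom also called 0 of the 7, where they called 0.259% and 0% of all tested genes. At an unadjusted edgeR p under 0.05 there was 1 of the 7, Rorb, against 5.76% of all tested genes, so these counts show nothing particular to the layer genes. Every SCFA library lay above every control for Rorb, an upper layer gene, with a fitted change of 1.49-fold that did not pass. The deep layer genes Tbr1 and Fezf2 had fitted changes of 0.983-fold and 0.974-fold. Cux1 had 0 counts in all 6 libraries. In a second set of layer genes, 11 upper and 13 deep, none passed either. Their median log2 fold changes were 0.18 for the upper and -0.16 for the deep genes. Of these, Scnn1a and Sox5 passed the filter on low counts through 1 group only, and without them the medians were 0.17 and -0.13. With total-count scaling, the medians of the full set were 0.38 and 0.00, and that of all tested genes was 0.18.

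The counts are given per RefSeq transcript, and a gene can have several. The 9 genes had 22 rows in the table, of which 9 held any count. Rasgrf2, Lamp5, Fezf2 and Tbr1 have 1 row each and held 6239, 6663, 1577 and 9044 counts over the 6 libraries. The other 5 genes have 2 to 7 rows. Rorb held 1621 counts, Foxp2 188, Bcl11b 60, Cux2 24 and Cux1 0.

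Exon models from GENCODE M21 (GRCm38), paired with the RefSeq accessions, were used to find which rows have exon sequence of their own. The RefSeq models behind the counts may differ from them, which bears on each number of unshared bases given here. For 9 rows, every exon base was also covered by another row of the same gene, and these 9 rows were all at 0. The remaining 4 rows at 0 did have such bases, 3 of them of Cux1 (306, 972 and 2133 bases) and 1 of Rorb (53 bases). The Foxp2 row with counts had 1425 unshared bases and the Bcl11b row with counts had 5223. Cux2 had 255 unshared bases in a row with 4 counts and 3926 in a row with 20. Among all protein-coding genes in the table, 17.1% of those with 1 row were at 0, against 32.2% of those with 3 or more rows. How reads shared between rows were handled is not stated in the labels, so a low count of Cux1, Cux2, Bcl11b or Foxp2 was not read as low expression. Genes annotated on the opposite strand also overlap Cux1 (Gm16599) and Cux2 (Gm3970 and Gm15637). Without a stated strand setting, reads of such partners cannot be told apart for Cux2, while Cux1 held no counts. On the same strand, A430110C17Rik, Mir721 and Gm38082 overlap Cux1, and Gm25470 overlaps Foxp2.

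**Figure D1:**
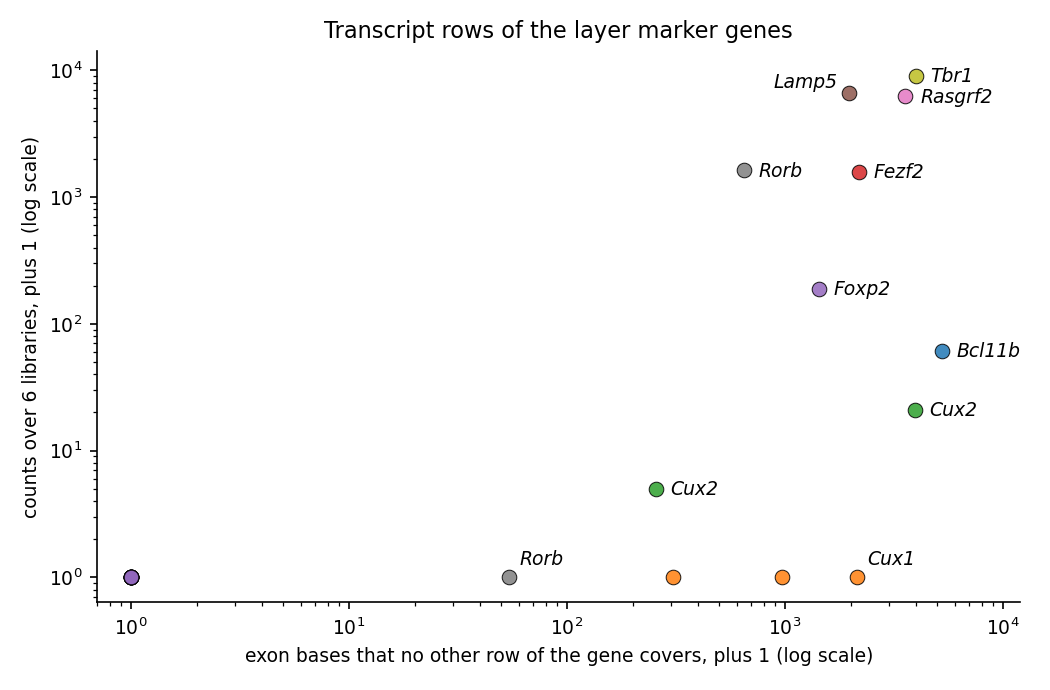
Each point is 1 transcript row of a layer marker gene, with the exon bases that no other row of the gene covers on the x axis and its counts over the 6 libraries on the y axis, both plus 1 on log scales. All rows with no base of their own lie together at the lower left, at 0 counts, and the 4 genes with a single row lie at 1577 counts or more.

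Rorb, which encodes an orphan nuclear receptor of layer 4 neurons, shows what a row can hold. Its gene lies on chromosome 19 from 18930609 to 19111196 (GRCm38.p6) on the minus strand and has a pair of start sites. All 1621 counts were in the row that starts at the upstream site, at position 19111196. The unshared part of that row is 645 bases long and lies at the start, from 19110552 to 19111196. Both rows that start at the downstream site, at 19001117, were at 0, and 1 of them has no unshared base while the other has 53. The Rorb values below are the counts of the upstream row, and a count of 0 in the other rows says nothing about use of the downstream site. The sequences around both start sites, 250 bases before to 50 after each, are shown to place the row that holds the counts beside the other annotated start (RefSeq, GRCm38.p6, minus strand, capitals mark CCAAT read on either strand).
Rorb upstream start, chr19:19111147-19111446: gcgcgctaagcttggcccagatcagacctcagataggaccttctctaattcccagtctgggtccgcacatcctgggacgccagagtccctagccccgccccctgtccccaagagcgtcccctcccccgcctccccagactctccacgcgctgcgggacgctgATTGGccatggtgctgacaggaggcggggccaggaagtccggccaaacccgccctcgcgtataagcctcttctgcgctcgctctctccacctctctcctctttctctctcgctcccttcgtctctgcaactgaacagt
Rorb downstream start, chr19:19001068-19001367: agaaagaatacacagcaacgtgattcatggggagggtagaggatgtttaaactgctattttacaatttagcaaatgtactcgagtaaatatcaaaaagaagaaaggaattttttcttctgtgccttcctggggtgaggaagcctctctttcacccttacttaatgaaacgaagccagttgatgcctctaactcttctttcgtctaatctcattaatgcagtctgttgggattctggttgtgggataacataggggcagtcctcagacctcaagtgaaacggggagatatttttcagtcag
The upstream sequence holds 20 CG dinucleotides and the downstream one 5, where the median over 32851 RefSeq promoter sequences of this length is 7. The letters CCAAT occurred once in the upstream sequence, on the opposite strand as ATTGG, and 0 times in the downstream one. They occurred in 37.4% of all promoter sequences. The letters AGGTCA, searched on both strands, occurred in neither sequence and in 16.3% of all.

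Among the upper layer genes, Rasgrf2 encodes an exchange factor that activates Ras proteins, and it lies on chromosome 13 from 91880407 to 92131828. It measured 89.8, 99.6 and 70.8 CPM (counts scaled to a fixed total per library, with TMM factors) in SCFA 1 to 3, against 85.5, 112 and 95.4 CPM in controls 1 to 3. The groups overlapped, with the highest value in control 2 and the lowest in SCFA 3. The mean was 86.7 ± 14.6 CPM with SCFA and 97.6 ± 13.4 CPM in controls (SD, n = 3 each). The fitted log2 fold change was -0.17 (SE 0.173, edgeR adjusted p = 0.934), and 0.05 with total-count scaling. The 95% interval of the change ran from -0.54 to 0.20, or from 0.687-fold to 1.15-fold.

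Lamp5 encodes a membrane protein of the LAMP family and is expressed in upper layer neurons and in a class of interneurons (chromosome 2, 136052025 to 136069917). It measured 81.0, 126 and 94.5 CPM in SCFA 1 to 3 and 99.0, 79.9 and 87.1 CPM in controls 1 to 3. SCFA 2 was the highest library, and the other SCFA libraries lay within the range of the controls. The log2 fold change was 0.18 (SE 0.181, edgeR adjusted p = 0.931, 95% interval -0.21 to 0.57), and without SCFA 2 it was -0.01.

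Rorb measured 26.4, 31.6 and 24.7 CPM in SCFA 1 to 3, against 18.1, 15.3 and 22.0 CPM in controls 1 to 3. Every SCFA library lay above every control, with SCFA 2 at the top and control 2 at the bottom. The mean was 27.6 ± 3.56 CPM with SCFA and 18.5 ± 3.36 CPM in controls (SD, n = 3 each), and the fitted log2 fold change was 0.58 (SE 0.236, 95% interval 0.07 to 1.08). The unadjusted p was 0.0294 and the adjusted p was 0.864 (edgeR). At an unadjusted p under 0.05 there were 5.76% of all tested genes, and 1 of the 7 tested layer genes. In 18 alternatives the log2 fold change of Rorb ran from 0.35 to 0.75, with adjusted p from 0.679 to 1. The lowest, 0.35, came without control 2 and SCFA 2, the libraries that stood farthest from the others.

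Cux1 and Cux2 are homeodomain transcription factors and widely used markers of layers 2 to 4. Both lie on chromosome 5, Cux1 from 136248135 to 136567590 and Cux2 from 121857962 to 122050415. Cux1 was at 0 counts in each library, and 3 counts stood for 0.206 to 0.346 CPM. Cux2 had 0, 12 and 6 counts in SCFA 1 to 3 and 3, 0 and 3 counts in controls 1 to 3. It was not tested, and each group had a library at 0.

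Among the deep layer genes, Tbr1 encodes a T-box transcription factor of layer 6 neurons that project to the thalamus (chromosome 2, 61802863 to 61814114). It measured 116, 136 and 137 CPM in SCFA 1 to 3 and 132, 123 and 141 CPM in controls 1 to 3. The groups overlapped, and the highest library was 1.22 times the lowest, the smallest such ratio of the 7 tested genes. The mean was 130 ± 12.2 CPM with SCFA and 132 ± 9.25 CPM in controls (SD, n = 3 each), and the fitted log2 fold change was -0.02 (SE 0.144, edgeR adjusted p = 0.988). The 95% interval ran from 0.792-fold to 1.22-fold, and with total-count scaling the log2 fold change was 0.15.

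Fezf2 encodes a zinc finger factor that specifies layer 5 neurons with axons to the spinal cord and brainstem (chromosome 14, 12338992 to 12346803). It measured 16.9, 22.4 and 28.1 CPM in SCFA 1 to 3 and 20.5, 23.6 and 25.3 CPM in controls 1 to 3. Both the lowest and the highest library were SCFA libraries, SCFA 1 and SCFA 3. The log2 fold change was -0.04 (SE 0.247, edgeR adjusted p = 0.99, 95% interval -0.57 to 0.49). It was 0.14 with total-count scaling and 0.13 without SCFA 1.

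Bcl11b and Foxp2 rested on few counts. Bcl11b, also called Ctip2, encodes a zinc finger factor that layer 5 neurons need for their axons to the spinal cord (chromosome 12, 107910403 to 108004145). It had 0, 13 and 8 counts in SCFA 1 to 3 and 7, 15 and 17 counts in controls 1 to 3. The groups overlapped, since control 1 at 0.567 CPM lay below SCFA 2 and SCFA 3 at 0.894 and 0.595 CPM. The log2 fold change was -1.36 (SE 1.17, edgeR adjusted p = 0.914), with values of -0.82 without SCFA 1 and -2.05 without SCFA 2.

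Foxp2 encodes a forkhead factor of layer 6 neurons (chromosome 6, 14901349 to 15441977). It had 34, 53 and 50 counts in SCFA 1 to 3 and 24, 0 and 27 counts in controls 1 to 3. In CPM these are 3.55, 3.64 and 3.72 with SCFA against 1.94, 0 and 2.70 in controls, so the SCFA libraries were close together and above each control. The log2 fold change was 1.21 (SE 0.934, edgeR adjusted p = 0.903), and without control 2, which had no Foxp2 count, it was 0.65. Control 2 also had counts in fewer rows of the table than any other library, 13600 against 15988 to 16941. The CPM of the groups did not overlap for 2 of the 7 tested layer genes, Rorb and Foxp2, both on the higher side with SCFA. The same held for 12.2% of all tested genes, 6.42% higher and 5.74% lower with SCFA.

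**Figure D2:**
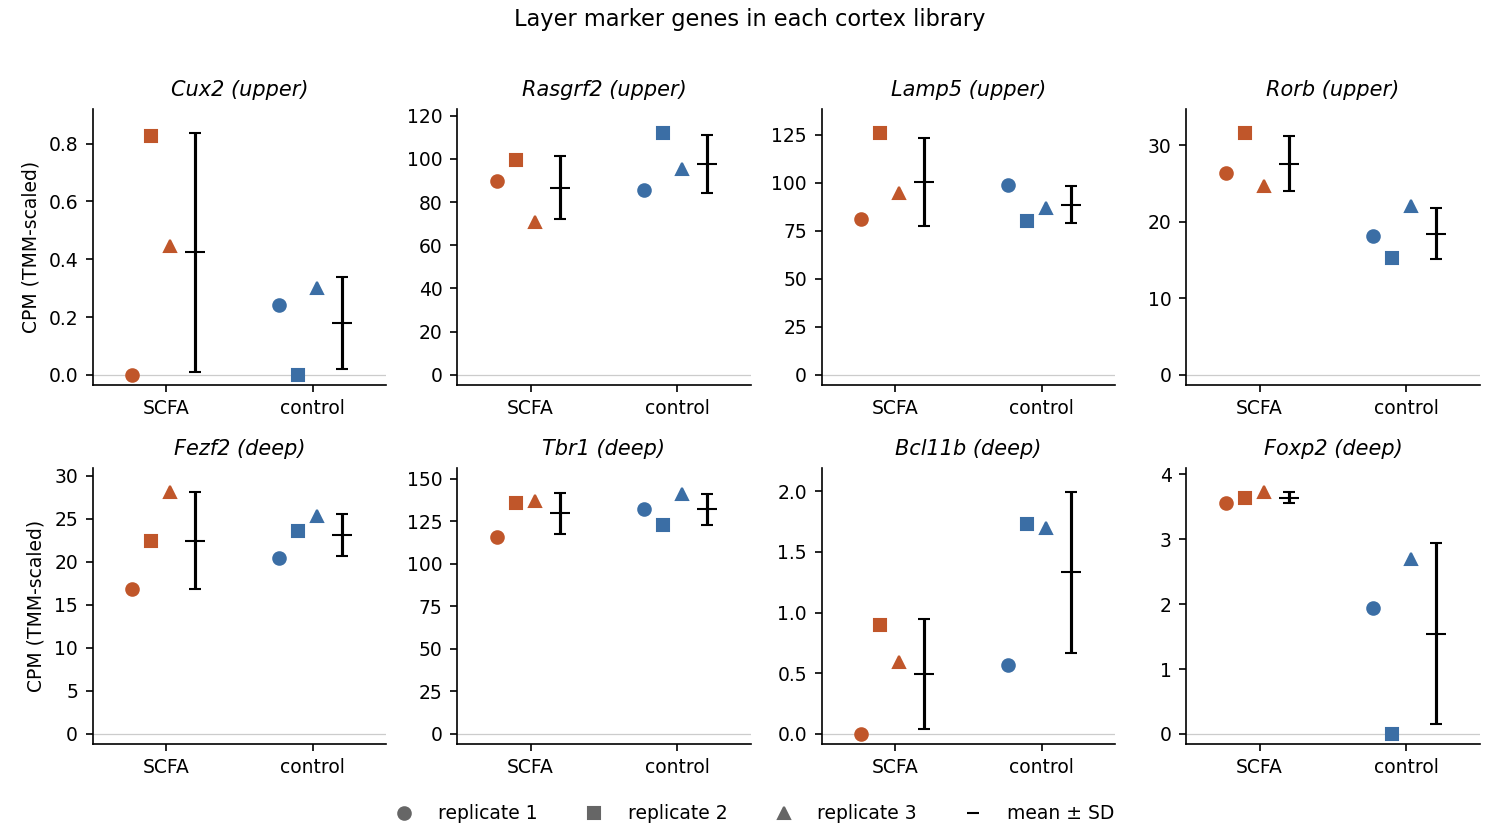
CPM of 8 layer marker genes in each library (y axis, linear), with 1 marker shape per replicate number and the mean ± SD of each group at its right; Cux1 is not drawn because all its counts were 0. The SCFA libraries of Rorb, between 24.7 and 31.6 CPM, lie above the controls, between 15.3 and 22.0 CPM, while Rasgrf2, Lamp5, Fezf2 and Tbr1 overlap.

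Levels of different genes were compared only per length, for the 4 genes with 1 row, with the length of the paired GENCODE transcript. RefSeq transcripts can differ in length from these models, which bears on the order. Lamp5 was highest, at 51.4 ± 11.8 CPM per kilobase with SCFA and 45.3 ± 4.94 in controls (SD, n = 3 each). Tbr1 followed at 32.6 ± 3.06 with SCFA and 33.2 ± 2.32 in controls, then Rasgrf2 at 24.3 ± 4.1 with SCFA and 27.4 ± 3.74 in controls. Fezf2 was lowest, at 10.3 ± 2.56 CPM per kilobase with SCFA and 10.6 ± 1.12 in controls. By mean level, the order alternated between upper and deep layer genes in both groups. The neighbours Tbr1 and Rasgrf2 overlapped in controls, where control 2 had 30.9 for Tbr1 and 31.4 for Rasgrf2, and the other neighbours in this order did not overlap in either group.

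Upper and deep layers were set against each other within each library. A layer index was taken as the mean log2 CPM of the upper genes minus that of the deep genes, each gene first centred on its mean over the 6 libraries. Over the 7 tested genes it was 0.49, 0.02 and -0.38 in SCFA 1 to 3 and -0.05, 0.43 and -0.51 in controls 1 to 3. The groups overlapped throughout, with means of 0.04 ± 0.434 with SCFA and -0.04 ± 0.471 in controls (SD, n = 3 each). The deep score alone was lowest in SCFA 1, at -0.49, and in control 2, at -0.59, the libraries in which Bcl11b and Foxp2, in this order, had no count. The difference between the group means was 0.09, and it was -0.15 without control 3 and 0.33 without control 2.

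Over the 5 genes with more than 1000 counts, a set chosen after the values were seen, the index was 0.29, 0.32 and -0.27 in SCFA 1 to 3. In controls 1 to 3 it was -0.04, -0.15 and -0.16. SCFA 1 and SCFA 2 lay above the controls and SCFA 3 below them, and the means were 0.12 ± 0.332 with SCFA and -0.12 ± 0.0643 in controls. The difference of 0.23 was 0.12 without control 2 and SCFA 2, and 0.13 to 0.43 with 1 library left out. The 3 tested upper genes had a median log2 fold change of 0.18 (-0.08 without control 2 and SCFA 2), with 2 of 3 above 0, and the 4 tested deep genes a median of -0.03, with 1 of 4 above 0. Over all tested genes the median was 0.01 and 6088 of 11969, or 50.9%, were above 0.

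The share of upper layer counts within a library does not depend on its depth. Of the counts of all 9 genes, 59.1% were of upper genes in SCFA 1 (Wilson 95% interval 57.4 to 60.8), 61.3% in SCFA 2 (60.0 to 62.5) and 52.8% in SCFA 3 (51.4 to 54.2). In controls 1 to 3 they were 56.7% (55.2 to 58.1), 58.3% (56.5 to 60.0) and 54.5% (52.9 to 56.1). The interval of SCFA 3 lay below those of SCFA 1 and SCFA 2, which overlapped, and that of control 3 lay below that of control 2. The group means were 57.7 ± 4.41% with SCFA and 56.5 ± 1.91% in controls (SD, n = 3 each).

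Ratios of an upper to a deep gene within a library gave 6 pairs, which share 5 genes. In 1 of them the groups did not overlap, as they did not for 12.2% of single tested genes. This was Rorb over Tbr1, at 0.228, 0.232 and 0.180 in SCFA 1 to 3 and 0.137, 0.125 and 0.156 in controls 1 to 3. Since Tbr1 varied only 1.22-fold over the libraries, this pair largely repeats the separation of Rorb alone. Rorb over Fezf2 was 1.56, 1.41 and 0.878 with SCFA and 0.885, 0.649 and 0.870 in controls, where SCFA 3 lay within the range of the controls. Lamp5 over Tbr1 averaged 0.771 ± 0.134 with SCFA and 0.672 ± 0.0695 in controls, and Rasgrf2 over Tbr1 averaged 0.674 ± 0.14 with SCFA and 0.744 ± 0.145 in controls (SD, n = 3 each).

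**Figure D3:**
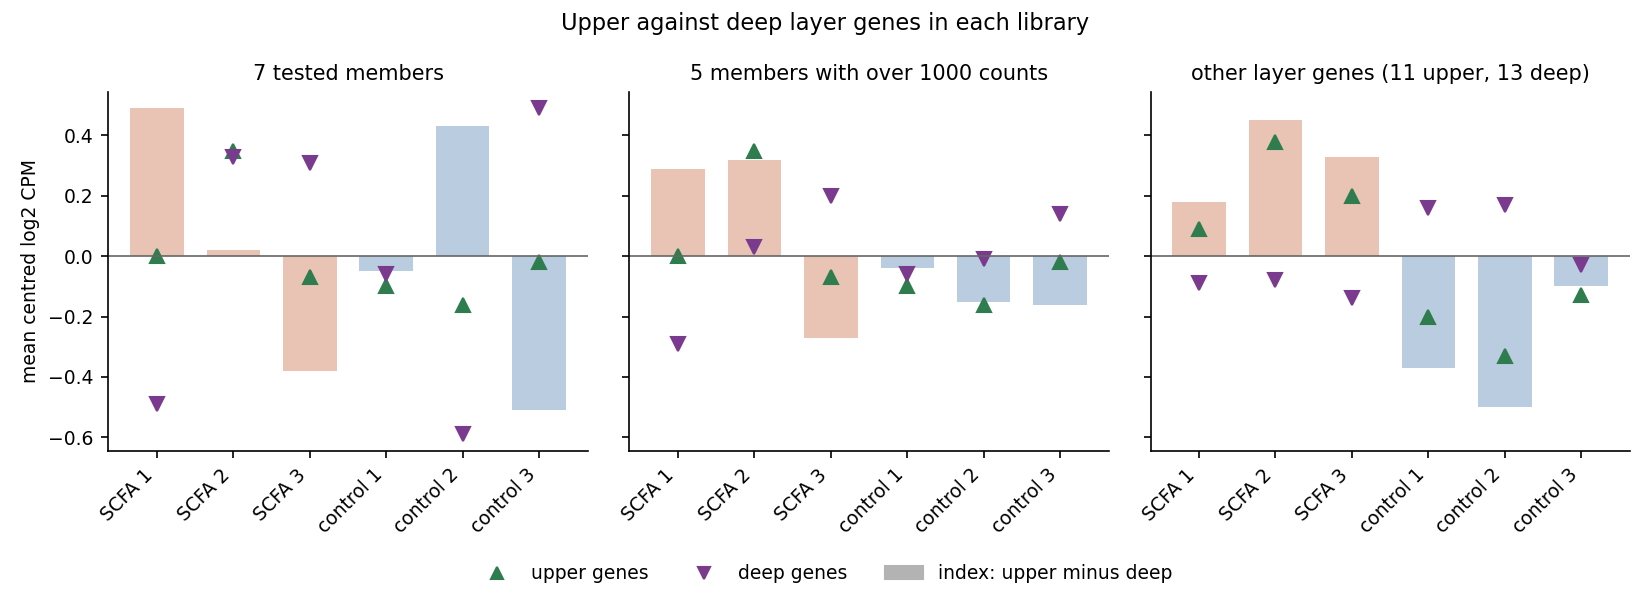
Mean centred log2 CPM (y axis) of upper genes (upward triangles) and deep genes (downward triangles) in each library, with bars for upper minus deep, over the 7 tested layer marker genes, the 5 with over 1000 counts, and the other layer genes. The bars overlap between groups in the first 2 panels. In the third they lie at 0.18 to 0.45 with SCFA and -0.50 to -0.10 in controls, but this includes Scnn1a and Sox5, which passed the filter through 1 group only, and without them the groups overlap (-0.09 to 0.30 with SCFA and -0.21 to -0.04 in controls).

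Other genes of the same layers were taken from lists of 12 upper and 19 deep layer genes. Of the upper list 11 were tested, 0 passed in either direction over all genes (edgeR), 7 lay above 0, and the median log2 fold change was 0.18. Of the deep list 13 were tested, 0 passed, 4 lay above 0, and the median was -0.16. At an unadjusted p under 0.05, 3 upper genes were on the higher side and 3 deep genes on the lower side, where 2.97% and 2.79% of all tested genes were. Of these 6, Scnn1a reached the cutoff of the low-count filter, 0.893 CPM, in SCFA libraries only and Sox5 in control libraries only. Each had to differ to be tested, so neither is support for a pattern. Without them the medians were 0.17 and -0.13. With total-count scaling, and with Scnn1a and Sox5 kept, 3 upper genes were on the higher side and 1 deep gene on the lower side. Over all 11969 tested genes, 430 were on the higher and 56 on the lower side at that scaling.

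The most abundant other upper genes reported here overlapped between the groups. The calcium buffer gene Calb1 averaged 134 ± 10.2 CPM with SCFA and 153 ± 44.6 CPM in controls (SD, n = 3 each), where control 2 was highest at 204 CPM. The log2 fold changes of Calb1, the semaphorin receptor gene Plxnd1, the POU factor genes Pou3f3 and Pou3f2 and the netrin receptor gene Unc5d were -0.19, 0.21, 0.16, -0.04 and 0.20. With total-count scaling, which moved the median of all genes to 0.18 from 0.01, those of Calb1 and Pou3f2 were 0.04 and 0.15. The 3 upper genes at an unadjusted p under 0.05 lay outside the naming rule and are named after their values were seen. Scnn1a, a sodium channel subunit gene used as a layer 4 marker, had 33, 39 and 22 counts in SCFA 1 to 3 and 4, 1 and 5 counts in controls 1 to 3 (log2 fold change 2.98, SE 0.977, edgeR adjusted p = 0.864). Wfs1, an endoplasmic reticulum membrane protein gene, measured 25.0, 54.6 and 33.3 CPM in SCFA 1 to 3 and 20.6, 18.2 and 23.0 CPM in controls 1 to 3. Its log2 fold change was 0.87, and 0.51 without SCFA 2. Mdga1, a cell adhesion protein gene, averaged 14.4 ± 5.11 CPM with SCFA and 7.16 ± 0.247 CPM in controls (log2 fold change 1.01). In all 3 genes every SCFA library lay above every control, as in 6.42% of all tested genes. They were picked by their p values, and Scnn1a passed the filter through SCFA libraries only, so this is no support for a pattern.

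Among the other deep genes Pcp4, a calmodulin-binding protein gene, was by far the most abundant. It measured 508, 390 and 375 CPM in SCFA 1 to 3 and 537, 538 and 545 CPM in controls 1 to 3, so that each SCFA library lay below each control. The log2 fold change was -0.35 (SE 0.142, unadjusted p = 0.0291, edgeR adjusted p = 0.864), and with total-count scaling it was -0.17 (SE 0.246). Hs3st4, which encodes a heparan sulfate sulfotransferase, averaged 47.0 ± 3.12 CPM with SCFA and 58.5 ± 11.1 CPM in controls, and the groups overlapped. Tshz2, Ccn2 (a gene of layer 6b), Rprm and Bcl6 had log2 fold changes of -0.02, -0.16, 0.26 and 0.29, and in each of them the groups overlapped. The other 2 deep genes at an unadjusted p under 0.05, named after their values were seen, were Crym and Sox5. Crym, a thyroid hormone binding protein gene, averaged 13.4 ± 2.76 CPM with SCFA and 21.2 ± 4.44 CPM in controls (log2 fold change -0.66, and -0.44 with SE 0.344 under total-count scaling). Sox5, a transcription factor gene of deep layer neurons, had 3, 9 and 6 counts with SCFA and 27, 52 and 11 counts in controls (log2 fold change -2.70, and -1.80 without control 2).

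**Figure D4:**
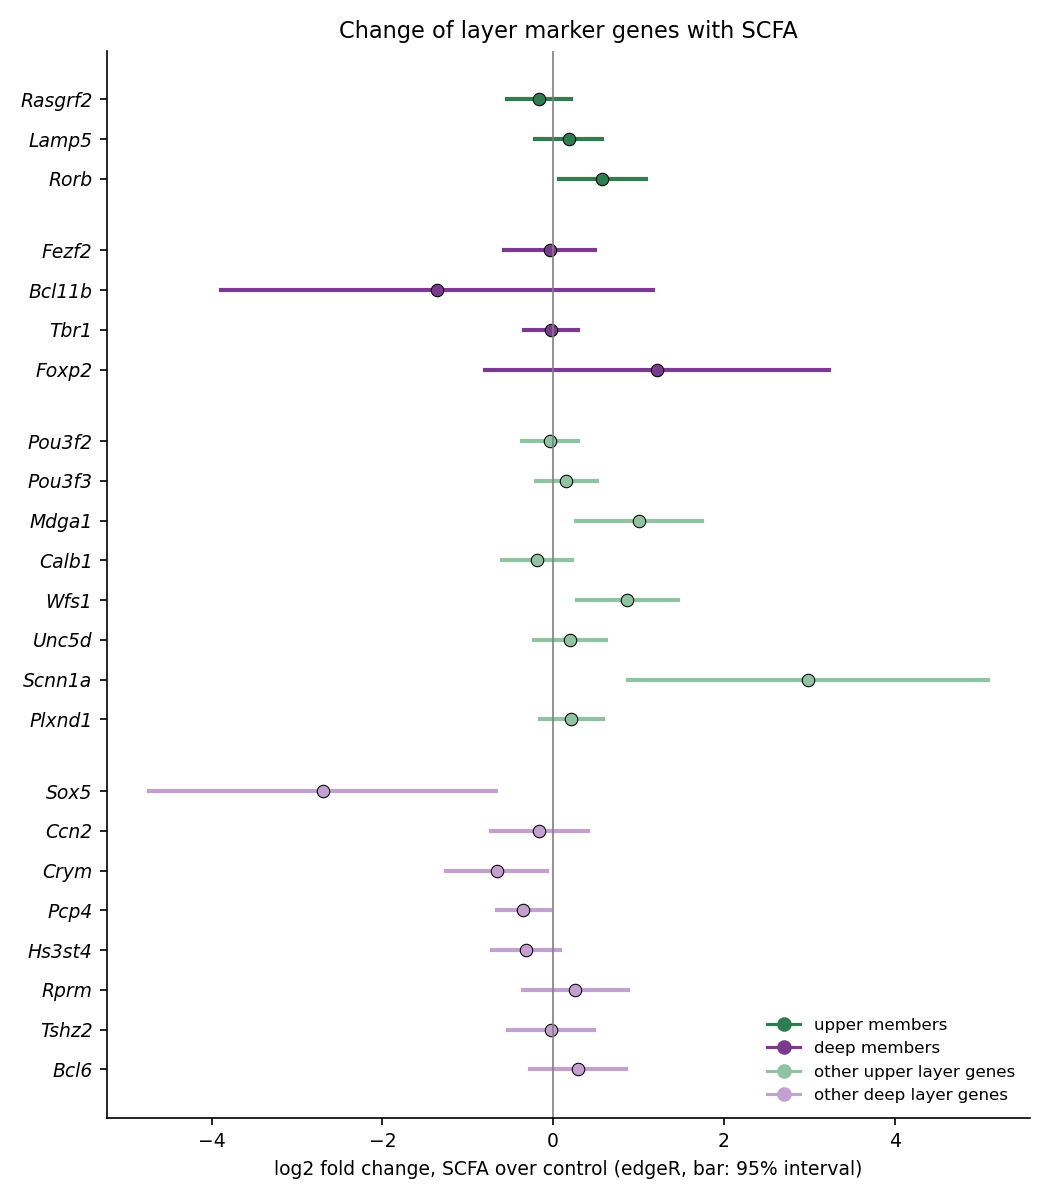
Log2 fold change of SCFA over control (x axis) for each tested layer marker gene and each gene named here from the other layer lists, with bars for the 95% interval of the edgeR fit. The intervals of Rorb, Mdga1, Wfs1 and Scnn1a lie above 0 and those of Sox5, Crym and Pcp4 below 0, and no gene drawn passed after adjustment over all genes.

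The index of these other genes, leaving out Scnn1a and Sox5 because each passed the filter through the group where it is high, was -0.09, 0.30 and 0.21 in SCFA 1 to 3. In controls 1 to 3 it was -0.21, -0.16 and -0.04. The groups overlapped, with means of 0.14 ± 0.202 with SCFA and -0.14 ± 0.0877 in controls (SD, n = 3 each) and a difference of 0.28. With both genes it was 0.18, 0.45 and 0.33 with SCFA and -0.37, -0.50 and -0.10 in controls, a difference of 0.65, and this separation rests on them. The choice to leave them out was made after their values were seen. No test was made of these indices. Some listed layer genes were left out by the filter on low counts, and they lie outside the naming rule. Nxph4, a layer 6b gene, had 6, 10 and 10 counts in SCFA 1 to 3 and 0 counts in each control. Sulf1 went the other way, with 3, 2 and 2 counts in SCFA 1 to 3 and 10, 5 and 3 in controls 1 to 3. Tle4 had 0, 7 and 5 counts with SCFA and 5, 0 and 0 in controls. Deptor had 2 counts in all, and Otof, Syt6 and Ldb2 had 0. These counts are no support for a pattern.

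Markers of other cells and regions were read beside these values. Striatal projection neurons also express Bcl11b and Foxp2, and the 17 genes of a striatal list summed to 86.0, 463 and 102 CPM in SCFA 1 to 3 and 167, 118 and 91.6 CPM in controls 1 to 3. In SCFA 2, the library with 463 CPM, Penk stood at 130 CPM against 23.8 to 29.1 CPM in the other 5 libraries. The striatal markers Meis2 and Ebf1 were at 0 in all 6, which does not set any library apart. Several of the lists hold genes with more than 1 row, 9 of the 17 in the striatal list. Zeros of listed genes, here and below, were therefore not read as low expression. Foxp2 was at 3.64 CPM in SCFA 2 and at 3.72 CPM in SCFA 3, its highest library. Bcl11b was at 0.894 CPM in SCFA 2 and at 1.73 CPM in control 2, its highest library. Both rest on few counts, and nothing was read from their order here. Lamp5, Rorb and Cux2, the last with 12 counts, were highest in SCFA 2. The part of the striatal markers in any of these values was not tested. The 11 tested striatal genes had a median log2 fold change of 1.0, and 0 passed in edgeR with the filter on low counts. Without that filter 1 of 15 did, Penk (adjusted p = 8.92e-05), where 30 of all 18852 tested genes were called higher. Penk, Rgs9 and Ppp1r1b had 1.12, 0.53 and 1.0, and without SCFA 2 they had -0.14, -0.47 and 0.04. The excitatory neuron list, 8 of 8 genes tested, ranged from 2600 to 2960 CPM with SCFA and from 2200 to 2810 CPM in controls. Its vesicular glutamate transporter gene Slc17a7 averaged 930 ± 57.6 CPM with SCFA and 757 ± 116 CPM in controls. Camk2a, a kinase gene of the same neurons, averaged 1170 ± 175 CPM with SCFA and 1050 ± 153 CPM in controls, so markers of cortical projection neurons were present in each library. The astrocyte list ranged from 1110 to 1590 CPM with SCFA and from 797 to 952 CPM in controls, and the microglia list from 539 to 831 CPM with SCFA and from 317 to 458 CPM in controls. All 9 astrocyte and all 10 microglia genes had counts. At an unadjusted p under 0.05, 4 of 8 tested astrocyte genes and 7 of 10 microglia genes were on the higher side in edgeR, against 2.97% of all tested genes, and 0 passed after adjustment. Other fits did call some on the higher side. DESeq2 called 2 of 8 astrocyte and 4 of 10 microglia genes, where it called 14 of all 11969 tested genes higher. Without a filter, edgeR called 2 of 9 and 5 of 10, and 30 of all 18852 tested genes higher. With the replicate number as a block it called 1 of 8 and 3 of 10, and 10 of all 11969 higher. Without control 2 and SCFA 2 it called 1 of 8 and 4 of 10, and 14 of all 12139 higher. The glutamate transporter genes Slc1a3 and Slc1a2 of astrocytes had log2 fold changes of 0.80 and 0.55, and the microglia gene C1qa had 1.05. The DESeq2 adjusted p was 0.0066 for Slc1a3 and 0.0256 for C1qa. Whether these differences bear on the layer genes was not tested. The interneuron list ranged from 349 to 447 CPM with SCFA and from 328 to 397 CPM in controls, and of its genes Vip, Reln and Lhx6 were at 0 in all libraries while Gad2 and Sst had log2 fold changes of -0.06 and 0.30. The thalamus list ranged from 21.6 to 30.2 CPM with SCFA and from 18.4 to 30.5 CPM in controls with Lef1 at 0, and the hippocampus list from 17.8 to 20.7 CPM with SCFA and from 12 to 26.1 CPM in controls. The log2 fold changes of Slc17a6 and Calb2 (thalamus) were -0.16 and 0.61, and those of Prox1 and Fibcd1 (hippocampus) were 0.42 and -1.14. Oligodendrocyte genes ranged from 148 to 220 CPM with SCFA and from 142 to 190 CPM in controls, and endothelial genes from 63.0 to 87.1 CPM with SCFA and from 46.9 to 57.5 CPM in controls with Pecam1 and Tek at 0. Cldn11 and Mag of oligodendrocytes had log2 fold changes of 0.07 and 0.39, and Slco1a4 and Flt1 of endothelium had 0.47 and 0.78.

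Among the genes whose pattern over the 6 libraries was closest to the mean upper pattern was Enc1, with a root mean square difference of 0.0451 in centred log2 CPM. It was highest in SCFA 2, at 0.34. Closest to the mean deep pattern were Tlr3 and Ganc, with differences of 0.0598 and 0.0898, and both were low in SCFA 1 and control 2. These are the libraries in which Bcl11b or Foxp2 was at 0. With 6 libraries and 11969 genes, likeness of this kind is a description of these libraries.

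**Figure D5:**
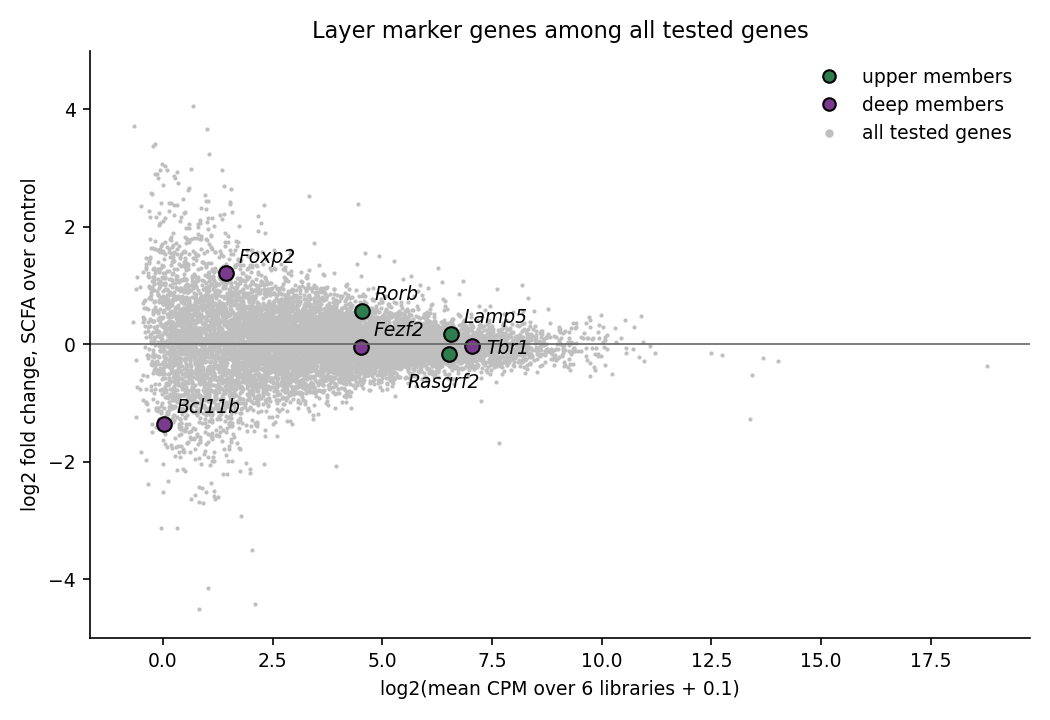
Log2 fold change of SCFA over control (y axis) against log2 of the mean CPM plus 0.1 (x axis) for all tested genes in grey, with upper layer marker genes in green and deep ones in purple; 15 genes lie outside the y axis limits of 5. Rasgrf2, Lamp5, Fezf2 and Tbr1 lie near 0, while Foxp2 and Bcl11b, at 1.21 and -1.36, lie among the low-count genes, where the spread is widest.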

How the data were processed

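Total RNA of frozen cortex was made into libraries with an Ovation kit for human FFPE RNA, per the labels' protocols. The authors deposited whole-number counts, not normalized, for 34755 RefSeq transcript rows in 6 libraries. The submitters' processing notes name CASAVA 1.8.2, featureCounts and mm10, with no aligner or strand setting. Rows were paired with symbols through RefSeq's GRCm38.p6 table (99.05% matched) and summed per symbol. Totals ran from 9275252 to 13862756 counts, and 1 unmatched row took 35.0% to 55.3% of each. Control 2 stood apart on the first principal component (109.2, others -25.77 to -17.74) and SCFA 2 on the second (-51.59).

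The test across genes was edgeR 4.0.16, run in R 4.3.3 (filterByExpr with minimum count 10 and minimum total 15, TMM, quasi-likelihood F test, two-sided, threshold 0.05). On simulated counts it recovered 42% of 2-fold and 85% of 4-fold changes. These changes were not set in genes with counts as low as those of Bcl11b and Foxp2. The standard error is the size of the log2 fold change divided by the square root of F. Scores use log2 CPM with a prior count of 2. Alternatives were other scalings and filters, DESeq2 1.42.0, limma-voom 3.58.1, a replicate block, libraries left out, structural RNA removed and unsummed rows. The layer genes and lists were chosen with earlier results of these data known. Named are all 9 genes, and by mean log2 CPM the top 6 of each other layer list, 4 striatal genes and 2 of each remaining list, and the 2 nearest genes to each pattern, and some of these are not reported here. The Wilson intervals and the floor of 3 counts cover counting error only. The 95% intervals of the log2 fold changes come from the edgeR fit and include the spread between libraries.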

Additional observations from a re-analysis of the deposited data

How the results depend on the processing

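None of the 7 tested layer genes passed in any of the 18 alternatives, and adjusted p values ran from 0.679 to 1. Rorb and Foxp2 stayed above 0 and Bcl11b below 0 in each alternative that tested them, at 0.35 to 0.75, 0.65 to 2.19 and -2.05 to -0.82. The log2 fold changes of Rasgrf2, Lamp5, Fezf2 and Tbr1 lay near 0, and each changed sign in some alternative. Some genes of the other lists changed sign too, among them Penk and Rgs9, which had 1.12 and 0.53 above. With total-count scaling, which moved the median of all genes to 0.18, Rasgrf2 was at 0.05, Fezf2 at 0.14, Tbr1 at 0.15, Calb1 at 0.04, Pou3f2 at 0.15 and Tshz2 at 0.13. Without control 2 and SCFA 2, Lamp5 was at -0.08, Calb1 at 0.03, Pou3f2 at 0.04, Unc5d at -0.05, Tshz2 at 0.23, Penk at -0.14 and Rgs9 at -0.39. Leaving out 1 library gave -0.23 to 0.13 for Fezf2, -0.07 to 0.06 for Tbr1, -0.01 to 0.32 for Lamp5, -0.31 to 0.07 for Calb1, -0.09 to 0.01 for Pou3f2, -0.16 to 0.22 for Tshz2, -0.35 to 0.08 for Ccn2, -0.14 to 1.5 for Penk and -0.47 to 0.90 for Rgs9. The causes were not tested.

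The median of the upper genes was 0.36 with total counts, 0.38 without a filter on low counts, -0.08 without control 2 and SCFA 2, and -0.01 to 0.32 with 1 library left out. That of the other upper genes was 0.38 with total counts and that of the other deep genes 0.00 with total counts and -0.34 to -0.14 with 1 library left out. The values for the other layer genes and for the 5 well counted genes were added after seeing the data. The difference in the layer index was 0.09 and ran from -0.15 to 0.33, with 0.23 without Bcl11b and Foxp2 and -0.11 without Rorb.

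Over all genes, 1 was called higher and 9 lower with SCFA. Without a filter there were 30 higher and 25 lower. DESeq2 called 14 higher and 17 lower. The limma-voom fit called 0 in either direction, and its unadjusted p was under 0.05 for 421 higher and 384 lower genes. Without control 2 and SCFA 2 there were 14 higher, and with 1 library left out 0 to 8 higher and 0 to 13 lower. With the replicate number as a block, 10 were called higher, no layer gene passed, and Rorb was at 0.58 (adjusted p = 0.85). Libraries with the same number did not deviate together (correlations of -0.00206, 0.0101 and -0.00525 over 11969 genes). Such correlations cannot show whether these libraries shared a batch. Bcl11b was not tested without control 2 and SCFA 2. Low counts limit Cux1, Cux2, Bcl11b and Foxp2, where 3 counts stand for 0.206 to 0.346 CPM.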
